A study of Cucumis sativus with 12 samples.

Results

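Heat shock proteins are chaperones that keep other proteins folded, and heat stress factors are the transcription factors that switch their genes on or off. The genes described here are the 56 of 24317 cucumber genes whose deposited description names a heat shock protein, HSP70, HSP90 or a heat stress factor. DnaJ co-chaperones were left out, as was a pair of A-6b heat stress factors, and a gene had to reach 1 FPKM (fragments per kilobase of transcript, scaled to the library's size) in at least 3 of the 12 libraries. A total of 65 genes matched by name, and 9 of them did not reach that level. The 56 fell by their descriptions into 12 HSP70 genes, 6 HSP90 genes, 21 small heat shock protein genes, 15 heat stress factors and 2 partner proteins that act on HSP90 or HSP70.

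RNA came from leaves of cucumber (Cucumis sativus) seedlings, and each library held the fully expanded second and the third leaves. Every seedling had been sprayed with 50 mg/L chitosan oligosaccharide (COS), a short-chain product of chitin known to elicit defence responses in plants. After 24 h at 28/18 °C (day/night) the seedlings were moved to 12/6 °C for 0, 3, 12 or 24 h, with 3 libraries for each time. The 0 h leaves are therefore sprayed and unchilled leaves, all comparisons are within sprayed seedlings, and water-sprayed seedlings are not analysed here. The labels give neither a cultivar nor the clock time of sampling, and the hours since the spray rose together with the hours in the cold, so that cold, time of day and time since the spray cannot be told apart. They also do not say whether the 3 libraries came from separate plants, so that the p-values speak of library-to-library spread, part or all of which may be technical.

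As background, HSP70 proteins bind unfolded stretches of other proteins and release them in cycles driven by ATP, in the cytosol, the chloroplast, the mitochondrion and the endoplasmic reticulum. HSP90 proteins take over partly folded clients, many of them kinases and receptors, and small heat shock proteins hold denatured proteins without ATP until HSP70 can refold them. In Arabidopsis and tomato, class A heat stress factors activate these genes, class B factors mostly lack an activation domain and several of them repress, and class C is a small plant group whose role is less well known. Heat is the best known inducer, and cold can also raise some of these genes in plants.

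Library totals were 62.7 to 81.6 M deposited units (M, 10 to the power of 6), which the spacing of the low values puts at about 16.8 to 21.8 M fragments. The 24 h libraries differed more from each other than the others did: their log2 levels correlated at r = 0.962 to 0.977 between libraries, against 0.981 to 0.985 within the other durations (across genes, which are not independent replicates). Chlorophyll a-b binding proteins and the small Rubisco subunit, the markers used for leaf mesophyll, summed to 21924 to 23506 FPKM at 0 h, 34596 to 35388 at 3 h, 45877 to 49966 at 12 h and 23528 to 26126 at 24 h, so that they moved with the time in the cold too. Of these 19 genes, 17 rose at 3 h and 17 at 12 h, against 29.4% and 34.4% of all tested genes. At 24 h 12 rose and 7 fell, against 36.2% and 37.9%, and all 19 fell from 12 to 24 h, against 27.4%. The part of these markers in the changes of the heat shock genes was not tested. The 3 root markers summed to at most 2.37 FPKM in any library. In whole leaves, fewer cells of a type and less RNA per cell cannot be told apart. Changes were tested with edgeR's quasi-likelihood test over 16432 genes and are given as log2 fold changes with their standard error (SE). A gene was called when its Benjamini-Hochberg adjusted p was below 0.05, and the comparisons at 3, 12 and 24 h share the 0 h libraries.

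The HSP70 and HSP90 genes made up most of what changed in level. The summed FPKM of the 12 HSP70 genes was 359 ± 22.3 at 0 h, 1269 ± 90.4 at 3 h, 2651 ± 109 at 12 h and 3421 ± 516 at 24 h (mean ± SD, n = 3 each). The 6 HSP90 genes summed to 168 ± 12.1, 463 ± 45.5, 1142 ± 53.1 and 1304 ± 330.4 FPKM at the same times. The 21 small heat shock protein genes moved much less, with 462 ± 61.4, 686 ± 71.0, 798 ± 43.9 and 877 ± 231 FPKM. The 15 heat stress factors went the other way in sum, with 656 ± 19.2, 329 ± 23.8, 384 ± 7.74 and 492 ± 33.0 FPKM; a single factor, C-1, held 77.1% of their sum at 0 h.

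Taken over all 56 genes, the sum was 1691 FPKM at 0 h, 2835 at 3 h, 5097 at 12 h and 6205 at 24 h, which was 0.296%, 0.505%, 0.887% and 1.12% of all FPKM in the libraries. HSP70 and HSP90 together held 76.2% of that sum at 24 h, against 31.2% at 0 h. The library of 24 h replicate 3 stood highest. The HSP70 sum was 9.53-fold that of 0 h with it and 8.71-fold without it. The HSP90 sum was 7.77-fold with it and 6.72-fold without it, and the small heat shock protein sum 1.899-fold and 1.62-fold. Set against 12 h, the HSP90 sum at 24 h was 1.14-fold with it and 0.987-fold without it, and that of the small heat shock proteins 1.10-fold and 0.939-fold.

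**Figure D1:**
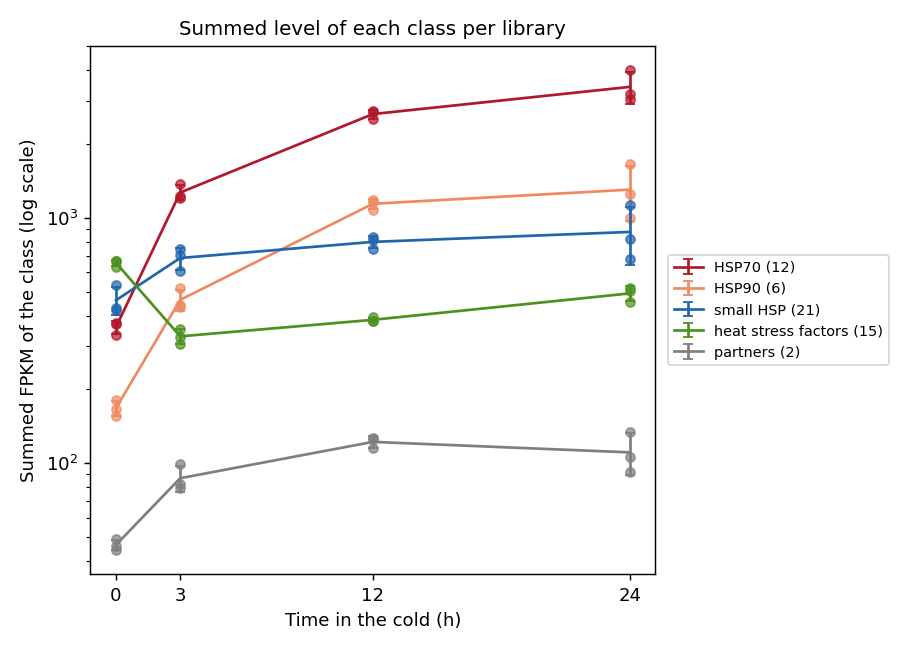
Summed FPKM of each class (log scale) against hours in the cold; points are single libraries, lines join the means and bars are the SD of 3 libraries. The means of HSP70 and HSP90 were highest at 24 h, at 3421 and 1304 FPKM, while the factor sum was 329 FPKM at 3 h and 492 FPKM at 24 h. C-1 held 77.1% of the factor sum at 0 h, and a different gene, B-2b-like, held 52.2% of it at 24 h. Without 24 h replicate 3 the HSP90 sum at 24 h was 0.987-fold that of 12 h.

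Of the 56 genes, 44 reached 1 FPKM in all 12 libraries, and the other 12 could enter through the times at which they were high, so that the counts below are a description. By gene, 36 of the 56 rose and 1 fell at 3 h, where 29.4% of all tested genes rose and 28.3% fell. At 12 h, 36 rose and 6 fell, against 34.4% and 33.0% of all genes. At 24 h, 35 rose and 14 fell, against 36.2% and 37.9% of all genes. Counted in either direction these are 37, 42 and 49 of the 56, beside 57.7%, 67.4% and 74.2% of all genes. The median log2 fold change of the 56 was 0.62, 0.97 and 1.17 at the 3 times, beside medians between -0.03 and 0.00 for all tested genes.

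A rise of at least 2-fold was called for 20, 27 and 31 of the 56 genes, against 11.5%, 16.0% and 18.9% of all genes. A total of 25 genes rose at all 3 times, against 16.6% of all genes, and 1 fell at all 3, against 16.9%. Over the 4 durations 54 of the 56 changed, as did 89.3% of all tested genes. From 3 to 12 h 31 of the 56 changed (20 up, 11 down), against 55.5% of all genes, and from 12 to 24 h 26 changed (13 up, 13 down), against 51.9%.

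The classes differed in how many members took part. Over all tested genes 29.4%, 34.4% and 36.2% rose and 28.3%, 33.0% and 37.9% fell at 3, 12 and 24 h. All 6 HSP90 genes rose at 12 and 24 h, and 5 of them at 3 h; with DESeq2 and with limma 5 rose at 12 h. The 6 include CsaV3_3G017480 and CsaV3_3G017490, which overlap on opposite strands, so that their rises may not be separate ones. Of the 12 HSP70 genes 10 rose at 3 h, 7 rose and 1 fell at 12 h, and 7 rose and 4 fell at 24 h. Of the 21 small heat shock protein genes 11 rose at 3 h, 11 rose and 4 fell at 12 h, and 9 rose (42.9%) and 7 fell (33.3%) at 24 h, close to the 36.2% and 37.9% of all genes. The 4 falls at 12 h were 2 without 0 h replicate 2 or 12 h replicate 1 or 3, 6 without 24 h replicate 1 or 3, and 1 with genes filtered at a mean of 5 FPKM. CsaV3_3G027480 and CsaV3_3G006720 are among the small heat shock proteins that fell at 12 and at 24 h. They reached 1 FPKM in only 3 and 5 libraries and were highest at 0 h, so that a fall could be built into their choice. The single HSP70 fall at 12 h became 2 with DESeq2, with limma, and without 3 h replicate 1 or 2 or 24 h replicate 1 or 3. Of the 15 factors 8 rose and 1 fell at 3 h, 10 rose and 1 fell at 12 h, and 12 rose and 3 fell at 24 h. Median log2 fold changes at 24 h were 1.16 for HSP70, 1.93 for HSP90, -0.08 for small heat shock proteins and 1.47 for factors; the difference between classes was not tested.

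**Figure D2:**
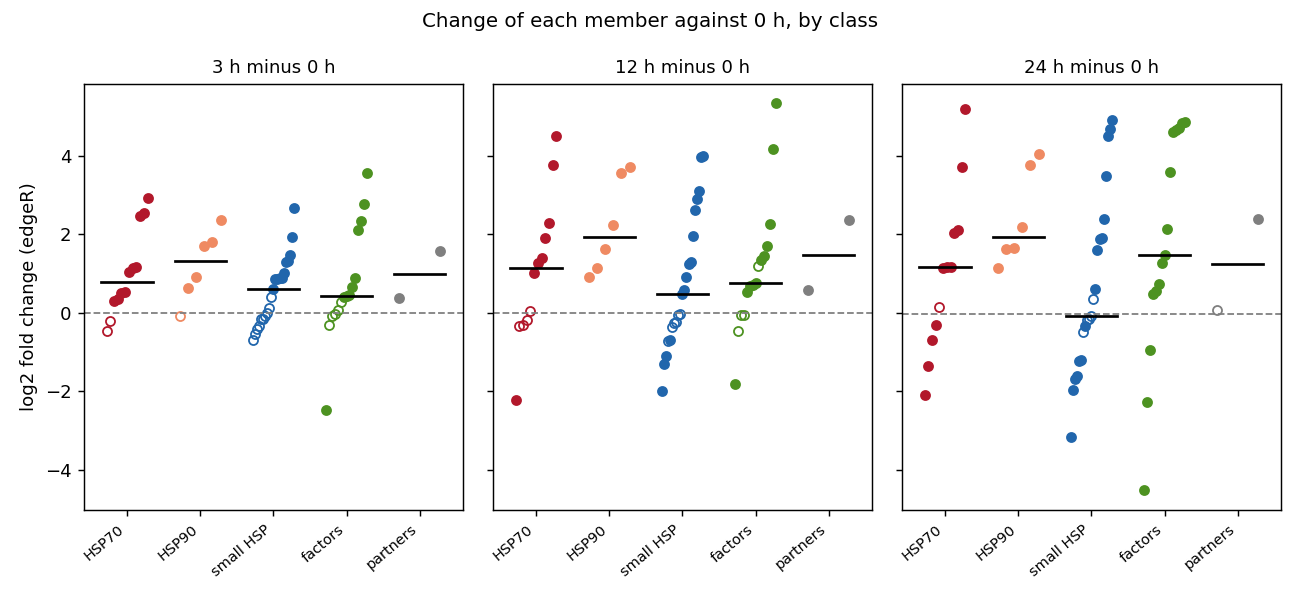
Log2 fold change of each gene at 3, 12 and 24 h against 0 h from edgeR, by class; filled points were called, open points were not, black bars are class medians and the dashed line is the median of all tested genes. The HSP90 points lie above 1.1 at 24 h, while the small heat shock proteins run from -3.16 to 4.91.

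CsaV3_4G024840, described as heat shock protein 70 and lying on chromosome 4 from 14570618 to 14574300 (deposited coordinates throughout, whose genome build the sources do not name), carried most of the HSP70 change. Its level was 74.1, 58.9 and 61.6 FPKM in the 0 h libraries and 488, 530.4 and 478 FPKM in the 3 h libraries. It reached 1396, 1459 and 1463 FPKM at 12 h and 2108, 2160 and 2563 FPKM at 24 h. No library of one duration overlapped with a library of another. The log2 fold changes were 2.94 ± 0.10 at 3 h, 4.53 ± 0.11 at 12 h and 5.19 ± 0.11 at 24 h (± SE; adjusted p = 1.1e-11 at 24 h), and the step from 12 to 24 h was also called (24 h over 12 h, 0.66 ± 0.09, adjusted p = 0.00010). At 24 h this gene held 66.6% of the HSP70 sum, and its rank by level among all genes was 1542 at 0 h, 128 at 3 h, 32 at 12 h and 6 at 24 h.

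CsaV3_5G026450, the second highest HSP70 gene (chromosome 5, 21611631 to 21615410), followed the same course until 12 h and then stopped. It had 53.7, 50.1 and 41.4 FPKM at 0 h, 249.7, 308 and 251 at 3 h, 589, 664 and 672 at 12 h, and 479, 539 and 831 at 24 h. The 3 h, 12 h and 24 h libraries all lay above those of 0 h, but those of 12 and 24 h overlapped. Against 0 h the log2 fold changes were 2.48 ± 0.19, 3.78 ± 0.20 and 3.73 ± 0.20 (adjusted p = 6.2e-09 at 24 h), and the step from 12 to 24 h was -0.06 ± 0.18 (adjusted p = 0.81). Its neighbour in class CsaV3_5G026520, a heat shock cognate 70 kDa gene nearby on the same chromosome, had its highest mean at 3 h. The means were 11.3 ± 2.28 FPKM at 0 h, 65.8 ± 11.01 at 3 h, 53.6 ± 4.51 at 12 h and 44.9 ± 16.5 at 24 h (SD, n = 3 each). Neither its step from 3 to 12 h nor that from 12 to 24 h was called. Its log2 fold changes against 0 h were 2.54, 2.29 and 2.04, all called; it was chosen for description after its values were seen.

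The HSP70 genes of the organelles moved together at first. Chloroplast HSP70 (CsaV3_2G011210), which helps to import and fold proteins in the stroma, was the highest HSP70 gene before the cold. It had 119, 127 and 112 FPKM at 0 h, 256, 275 and 263 at 3 h, 280.5, 316 and 318 at 12 h, and 223, 248 and 305 at 24 h. Called at each time, it had log2 fold changes of 1.15, 1.41 and 1.17, each ± 0.11 (adjusted p = 8.0e-07 at 24 h), and the 12 and 24 h libraries overlapped. Mitochondrial HSP70 (CsaV3_4G014660) had means of 20.4 ± 0.629 FPKM at 0 h, 41.7 ± 1.96 at 3 h, 74.0 ± 1.83 at 12 h and 85.4 ± 12.4 at 24 h, with log2 fold changes of 1.03, 1.92 and 2.13. All 4 HSP70 genes named for an organelle rose at 3 h, against 29.4% of all genes. At 24 h 3 of them rose and 1 fell, against 36.2% and 37.9% of all genes. The one that fell, the stromal gene CsaV3_7G024760, had 10.2 ± 2.62 FPKM at 0 h, 14.7 ± 3.14 at 3 h, 7.78 ± 1.42 at 12 h and 6.03 ± 0.678 at 24 h. Its rise at 3 h (adjusted p = 0.040) was lost in 5 of 22 other settings.

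The members that fell in this class were low ones. CsaV3_2G009170, a heat shock 70 kDa gene (chromosome 2, 5673429 to 5675700), had 3.24, 0.697 and 1.87 FPKM at 24 h, against 7.58, 12.7 and 5.69 FPKM at 0 h, with 4.39 to 8.30 FPKM in the 6 libraries between. At 24 h it fell by 2.10 ± 0.45 on the log2 scale (adjusted p = 0.0011), with no overlap, and at 3 and 12 h it was not called. Heat shock 70 kDa protein 8 (CsaV3_3G013380) fell by 2.23 at 12 h and by 1.36 at 24 h, at means of 0.590 and 1.08 FPKM against 2.90 FPKM at 0 h. The proteins 15 to 17 differed from each other. CsaV3_7G033150, protein 15-like and of the HSP110 kind that serves other HSP70s as nucleotide exchange factor, rose at all 3 times to a mean of 96.9 ± 6.13 FPKM at 24 h, against 45.4 ± 2.47 at 0 h (log2 fold change 1.15). CsaV3_3G022450, protein 16, rose by 0.30 at 3 h and fell by 0.30 at 24 h on the log2 scale, and CsaV3_4G032260, protein 17, rose by 0.36 at 3 h and was not called later.

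The HSP90 genes showed the most even picture. The highest, a heat shock cognate protein 80 gene (CsaV3_1G038710, chromosome 1, 24388218 to 24391475), had 53.6, 41.7 and 44.2 FPKM at 0 h and 136, 179.6 and 138 FPKM at 3 h. It had 499, 552 and 553 FPKM at 12 h and 449, 587 and 798 FPKM at 24 h. The libraries of 0, 3 and 12 h were apart from each other, and the 24 h libraries spread across those of 12 h. Log2 fold changes came to 1.70 ± 0.18, 3.58 ± 0.20 and 3.77 ± 0.20 (adjusted p = 6.0e-09 at 24 h).

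Its neighbour CsaV3_1G038690, a cognate protein 80-like gene within the same 16.0 kb, had the largest rise of the class. It had 29.6, 25.8 and 22.7 FPKM at 0 h, 125, 156 and 126 at 3 h, 323, 337 and 339 at 12 h, and 319, 395 and 528 at 24 h. Its log2 fold changes were 2.38 ± 0.17, 3.73 ± 0.18 and 4.05 ± 0.18 (adjusted p = 1.3e-09 at 24 h). The cognate genes carry nearly the same description, and if reads fit both of them the split between them is uncertain. CsaV3_5G018740, described as heat shock protein 83 and the highest HSP90 gene before the cold, changed less: it had 75.1, 78.4 and 69.5 FPKM at 0 h, 146, 139 and 139 at 3 h, 212, 239 and 219 at 12 h, and 189.5, 221 and 266 at 24 h. Its log2 fold changes were 0.92, 1.64 and 1.66, each ± 0.11 (adjusted p = 4.3e-08 at 24 h).

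Between 12 and 24 h no HSP90 gene was called by edgeR in either direction, and none had an unadjusted p below 0.05; DESeq2 called 1 upward and limma none, and without 24 h replicate 1 edgeR called 2 upward. Across all genes 24.5% rose and 27.4% fell in that step. From 3 to 12 h, 5 of the 6 HSP90 genes rose, against 27.9% of all genes (27.6% fell). The remaining one was CsaV3_3G017480, one of a pair of heat shock protein 83 genes that overlap on opposite strands of chromosome 3 (13094503 to 13098153, and CsaV3_3G017490 at 13095764 to 13102124). CsaV3_3G017480 had means of 2.43 ± 0.492 FPKM at 0 h, 8.46 ± 2.52 at 3 h, 4.43 ± 0.880 at 12 h and 7.30 ± 4.58 at 24 h, whereas CsaV3_3G017490 had 2.77 ± 0.0887, 2.63 ± 0.814, 12.7 ± 1.39 and 12.3 ± 1.47 FPKM. The sources used here do not give the strand setting of the counts, so that reads from the stretch both genes cover cannot be told apart. The only deposited Gene Ontology term of CsaV3_3G017490 was DNA binding, where the other HSP90 genes carried protein folding. The call of CsaV3_3G017480 at 12 h (adjusted p = 0.049) was lost in 16 of 22 other settings.

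The partner proteins rose beside HSP70 and HSP90. CsaV3_3G003080, an HSP70-HSP90 organizing protein 3-like gene whose product passes clients between both chaperones, had 16.4, 16.8 and 13.7 FPKM at 0 h, 44.0, 54.2 and 41.9 at 3 h, 73.8, 78.9 and 80.6 at 12 h, and 63.4, 76.1 and 99.2 at 24 h. Its log2 fold changes were 1.58 ± 0.15, 2.37 ± 0.16 and 2.40 ± 0.16. The activator of HSP90 ATPase (CsaV3_3G038670) rose by 0.38 at 3 h and 0.58 at 12 h on the log2 scale and stood at 31.1 ± 3.46 FPKM at 24 h, against 30.8 ± 1.23 at 0 h (not called). Both partners lie outside the rule for genes described in full and were added after their values were seen.

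**Figure D3:**
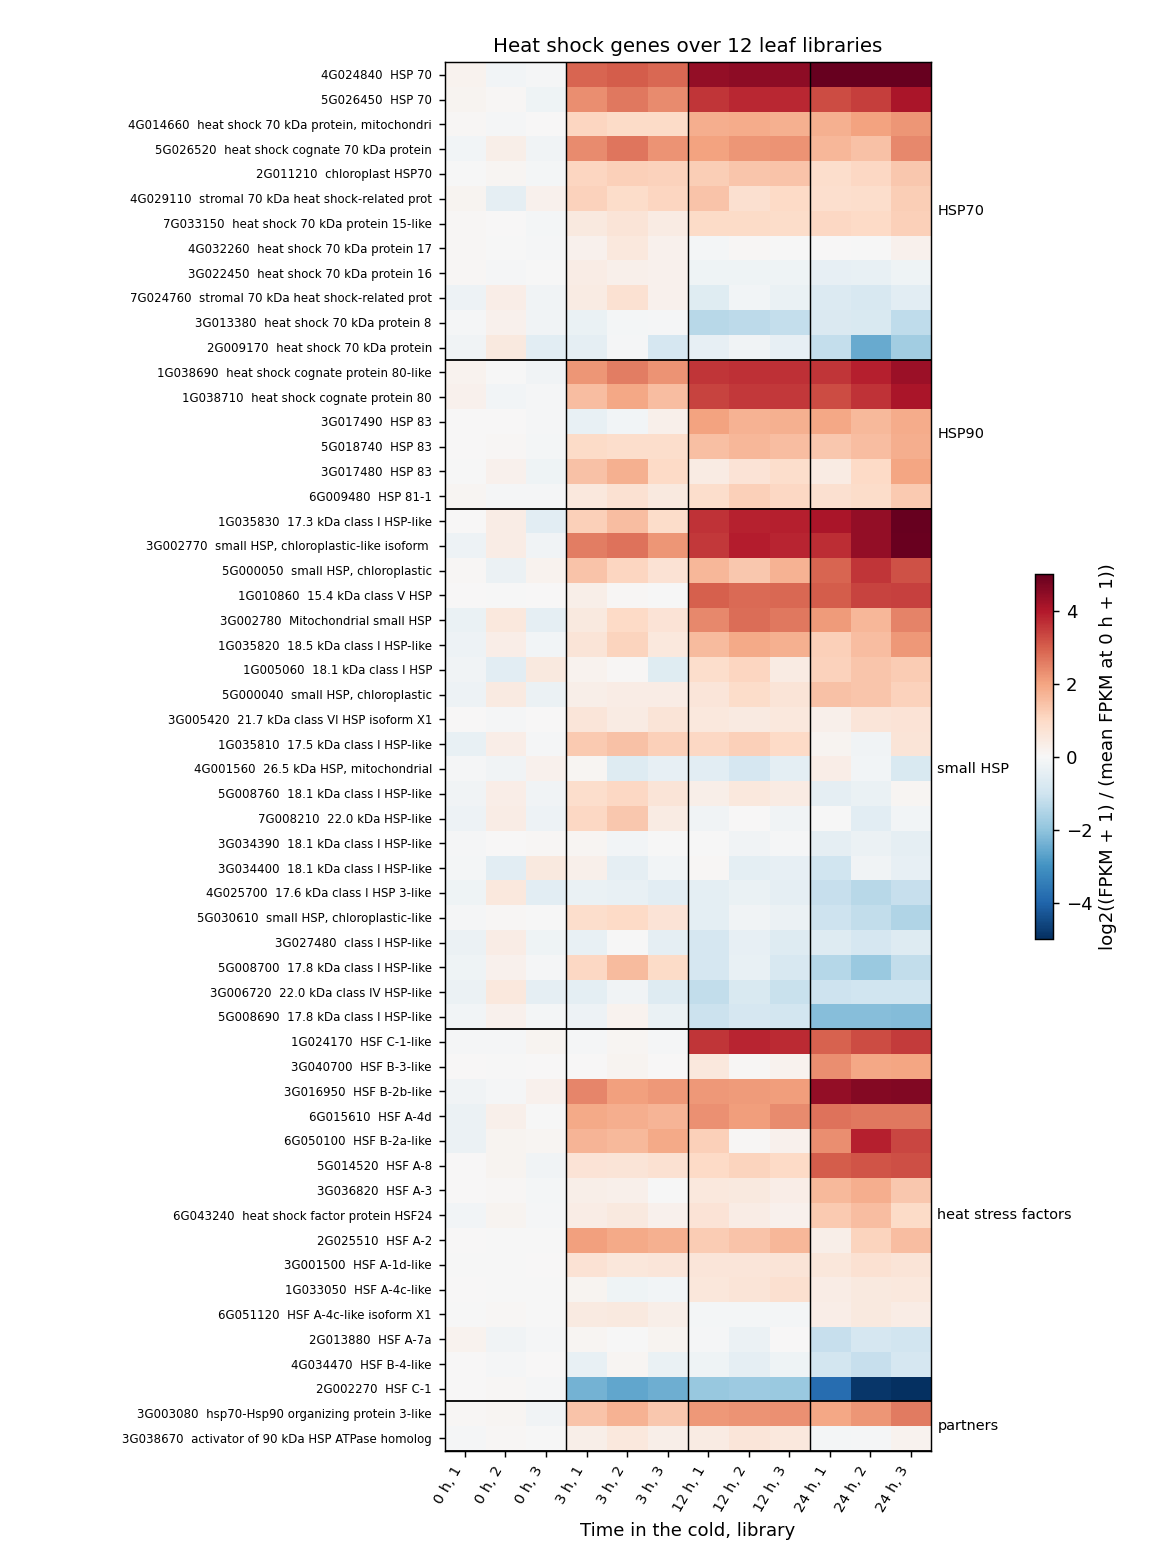
Heat map of the 56 genes (rows, by class and by change at 24 h) in the 12 libraries (columns, by hours in the cold and replicate); colour gives log2((FPKM + 1)/(mean FPKM at 0 h + 1)), red above and blue below 0 h, and saturates at 5. HSP90 rows turn red from 3 or 12 h on, and the small heat shock protein rows hold both red and blue ones at 24 h.

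Of the 21 small heat shock proteins 11 rose and 0 fell at 3 h, and they went both ways at 12 and 24 h. Over all genes 29.4% rose and 28.3% fell at 3 h, 34.4% and 33.0% at 12 h, and 36.2% and 37.9% at 24 h. Among the 11 genes named class I, a cytosolic class, 5 rose at 3 h, 5 rose and 3 fell at 12 h, and 3 rose and 5 fell at 24 h. Among the 6 named for the chloroplast or mitochondrion, 4 rose at each of the 3 times, though not the same 4 throughout, and 1 fell at 24 h. At 12 and 24 h the 4 include the overlapping pair CsaV3_5G000040 and CsaV3_5G000050, whose reads cannot be told apart. The remaining 4, of classes IV to VI and a 22.0 kDa gene, had 2 rises at each time and 1 fall at 12 and 24 h. That fall, of CsaV3_3G006720, and the falls of the class I gene CsaV3_3G027480 could be built into the choice, as said above. These groups are small, and no difference between them was tested.

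The class I genes CsaV3_3G034390 and CsaV3_5G008760, the highest before the cold, did not end above their level at 0 h. The next highest, CsaV3_4G025700, was called against 0 h at 24 h only, when it fell (adjusted p = 0.00026). Its rank by level among all genes was 1844 at 0 h and 4417 at 24 h, and it was added after its values were seen. CsaV3_3G034390, an 18.1 kDa gene on chromosome 3 (29181040 to 29182090), had 132, 138 and 142 FPKM at 0 h, 149, 126 and 137 at 3 h, 134, 122 and 133 at 12 h, and 99.97, 112 and 100.5 at 24 h. It was called at 24 h only, when it fell by 0.34 ± 0.08 on the log2 scale (adjusted p = 0.0017), with all 3 libraries below those of 0 h. CsaV3_5G008760, another 18.1 kDa gene (chromosome 5, 5435242 to 5437328), had 95.4, 136 and 95.1 FPKM at 0 h, 200.01, 226 and 168 at 3 h, 132, 159 and 146 at 12 h, and 78.5, 87.2 and 117 at 24 h. It rose by 0.86 ± 0.18 at 3 h (adjusted p = 0.0012), and its 24 h libraries overlapped those of 0 h (-0.15 ± 0.17, adjusted p = 0.45). The call at 12 h (0.47 ± 0.17, adjusted p = 0.031) overlapped with 0 h and was lost when any of 4 libraries, 0 h replicates 1 or 3 or 12 h replicates 2 or 3, was left out, with adjusted p up to 0.11.

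The largest rise among small heat shock proteins at 24 h was that of CsaV3_1G035830, a 17.3 kDa class I gene (chromosome 1, 21898380 to 21898862). It had 8.85, 11.4 and 5.76 FPKM at 0 h, 20.8, 27.0 and 17.3 at 3 h, 118, 137 and 143 at 12 h, and 162, 200.2 and 394 at 24 h. The libraries of 0, 3, 12 and 24 h did not overlap, and 24 h replicate 3 was the highest of the 12. Its rises on the log2 scale were 1.32 ± 0.33, 3.99 ± 0.35 and 4.91 ± 0.36 (adjusted p = 1.2e-07 at 24 h). The step from 12 to 24 h (0.93 ± 0.30, adjusted p = 0.022) was lost without 24 h replicate 3 and without either of 2 libraries of 12 h (replicates 1 and 2), with adjusted p up to 0.10.

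Its neighbours changed less. All 3 genes lie within 6.78 kb of chromosome 1 (21892088 to 21898862). CsaV3_1G035820, an 18.5 kDa gene, had means of 6.20 ± 1.70 FPKM at 0 h, 11.4 ± 2.89 at 3 h, 23.5 ± 2.87 at 12 h and 22.3 ± 8.24 at 24 h (log2 fold change at 24 h 1.903 ± 0.27). CsaV3_1G035810, a 17.5 kDa gene, had 5.91 ± 1.72, 16.5 ± 1.70, 13.5 ± 0.958 and 7.22 ± 2.43 FPKM, so that it rose at 3 and 12 h and was not called at 24 h (0.34 ± 0.24, adjusted p = 0.21). Reads that fit more than one of these similarly named neighbours could have been split between them, and their single values are uncertain in that respect.

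A further pair of class I genes lies on chromosome 5 and went down. CsaV3_5G008690, a 17.8 kDa gene (5349881 to 5350786), had 5.73, 7.64 and 5.97 FPKM at 0 h, 5.25, 7.39 and 4.84 at 3 h, 2.55, 3.11 and 2.95 at 12 h, and 0.689, 0.708 and 0.653 at 24 h. It fell by 1.11 ± 0.20 at 12 h and fell by 3.16 ± 0.22 at 24 h on the log2 scale (adjusted p = 7.7e-08 at 24 h), with no overlap in either. Its neighbour CsaV3_5G008700 (5360693 to 5363946), also 17.8 kDa, was the 1 gene of the 56 called upward at 3 h and downward at 12 and 24 h. Its means were 10.53 ± 1.86 FPKM at 0 h, 25.8 ± 6.56 at 3 h, 6.27 ± 1.38 at 12 h and 3.12 ± 0.865 at 24 h, and the fall at 12 h (adjusted p = 0.026) was lost without 0 h replicate 2 and without 12 h replicate 1 or 3.

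**Figure D4:**
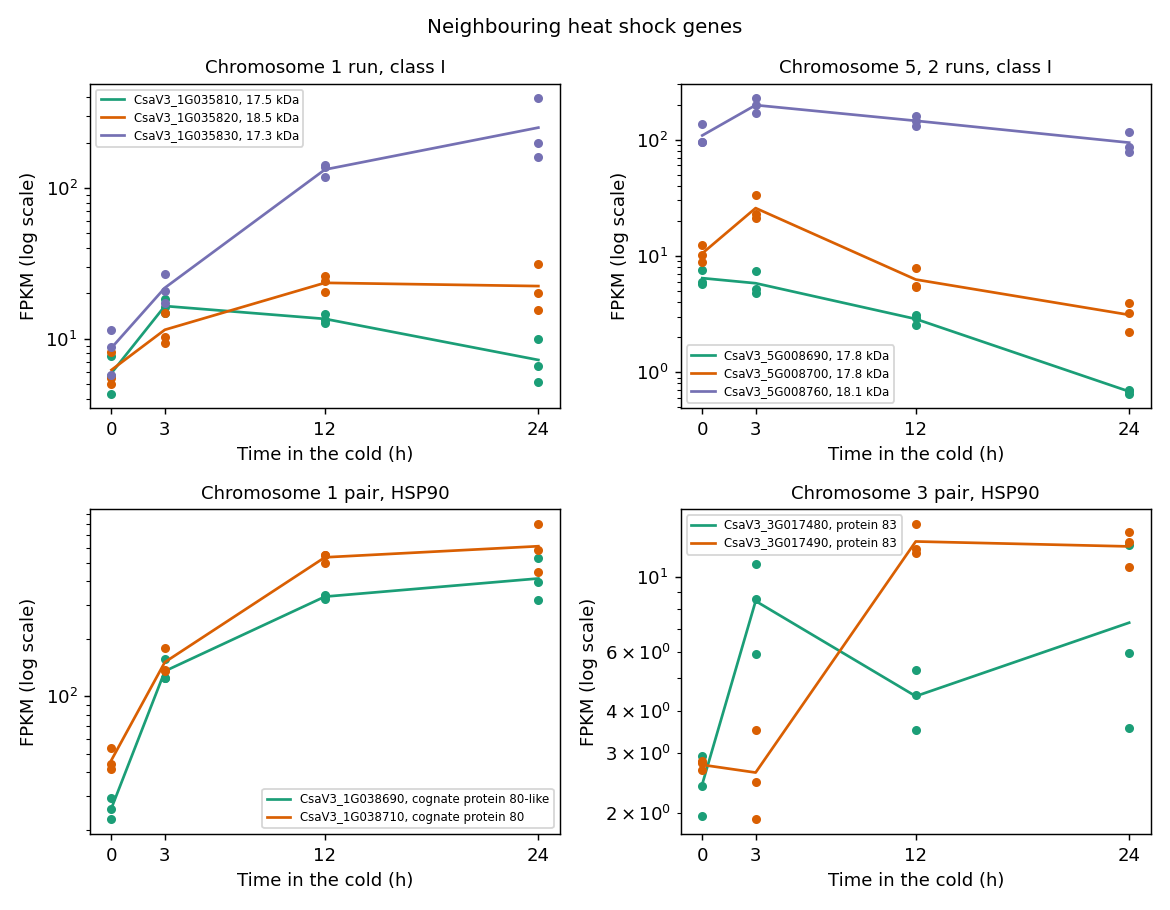
FPKM (log scale) against hours in the cold for neighbouring heat shock genes; points are single libraries and lines join the means of 3 libraries. In the chromosome 1 run the 3 lines part to 7.22, 22.3 and 252 FPKM at 24 h, CsaV3_5G008690 drops to 0.683 FPKM, and the cognate protein 80 pair stays parallel.

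Of the organelle-named small heat shock proteins, the chloroplastic-like CsaV3_3G002770 (chromosome 3, 2251829 to 2254144) had the largest rise of all small heat shock proteins at 3 h and at 12 h. It had 5.42, 8.69 and 5.64 FPKM at 0 h, 43.5, 49.3 and 33.9 at 3 h, 87.3, 114 and 105 at 12 h, and 96.05, 160.0 and 232 at 24 h. Every chilled library lay above the 0 h libraries, and the 12 and 24 h libraries overlapped. In log2 fold changes this was 2.68 ± 0.30, 4.01 ± 0.31 and 4.68 ± 0.32 (adjusted p = 6.4e-08 at 24 h). The mitochondrial gene directly after it, CsaV3_3G002780, had means of 4.69 ± 2.25 FPKM at 0 h, 8.54 ± 1.78 at 3 h, 34.1 ± 4.67 at 12 h and 23.7 ± 6.88 at 24 h, and its rise at 3 h (adjusted p = 0.028) was lost without any of 4 libraries (0 h replicates 1 and 3, 3 h replicates 2 and 3).

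Other organelle genes took different courses. CsaV3_5G030610, chloroplastic-like, was the highest of them before the cold: its mean was 54.6 ± 2.40 FPKM at 0 h, 101 ± 11.4 at 3 h, 44.0 ± 5.11 at 12 h and 22.5 ± 3.65 at 24 h, a rise of 0.88 at 3 h and a fall of 1.22 at 24 h on the log2 scale. CsaV3_5G000040 and CsaV3_5G000050, a chloroplastic pair that overlaps on opposite strands over nearly the whole length, rose at 24 h to 11.5 ± 1.31 and 14.9 ± 3.63 FPKM, against 3.95 ± 1.54 and 0.678 ± 0.261 at 0 h. Without the strand setting their reads cannot be told apart, so these are not 2 separate rises. The 26.5 kDa mitochondrial gene CsaV3_4G001560 was called at no time, with means of 3.19 to 5.43 FPKM.

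The 15.4 kDa class V gene CsaV3_1G010860 changed late and sharply. It had 8.17, 8.02 and 8.27 FPKM at 0 h and 10.1, 8.61 and 7.93 FPKM at 3 h, where it was not called (0.12 ± 0.11, adjusted p = 0.37). It then had 72.5, 64.6 and 65.1 FPKM at 12 h and 73.9, 94.7 and 96.3 FPKM at 24 h, with log2 fold changes of 3.10 ± 0.12 and 3.49 ± 0.12. This gene and those of the preceding paragraph, like the neighbours of the named genes, were chosen after their values were seen.

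Heat stress factor C-1 (CsaV3_2G002270, chromosome 2, 893155 to 894524) was the most abundant of the 56 genes before the cold and the only one of them that fell at all 3 times. It had 507, 524 and 484 FPKM at 0 h and 98.1, 83.2 and 92.3 FPKM at 3 h. It had 134, 143 and 139.8 FPKM at 12 h and 35.1, 16.6 and 11.2 FPKM at 24 h. All 4 durations were apart from each other, with the 12 h libraries above those of 3 h. That step from 3 to 12 h (log2 fold change 0.66) was not called. It fell by 2.47 ± 0.30 at 3 h, by 1.81 ± 0.30 at 12 h and by 4.53 ± 0.33 at 24 h on the log2 scale (adjusted p = 1.2e-07 at 24 h), and in rank by level among all genes it was 4784 at 24 h, against 127 at 0 h.

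The other class C gene went up. CsaV3_1G024170, C-1-like (chromosome 1, 13663460 to 13666158), had 0.380, 0.383 and 0.595 FPKM at 0 h and 0.385, 0.551 and 0.394 FPKM at 3 h, where it was not called (-0.04 ± 0.22, adjusted p = 0.89). It had 16.3, 19.5 and 18.3 FPKM at 12 h and 10.2, 13.03 and 15.4 FPKM at 24 h, every one of them above the libraries of 0 and 3 h. It entered the 56 through those 6 libraries alone, so that a rise was built into the choice. The counts over all factors and over the 56 genes at 12 and 24 h include this gene. The log2 fold changes were 5.36 ± 0.22 at 12 h and 4.87 ± 0.22 at 24 h (adjusted p = 1.5e-09). The step down from 12 to 24 h (24 h over 12 h, -0.49 ± 0.18, adjusted p = 0.036) was lost in 5 of 22 other settings, 4 of which left out a single library (12 h replicate 2 or 3, 24 h replicate 1 or 2).

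The class B factors took different courses. B-2b-like (CsaV3_3G016950, chromosome 3, 12743761 to 12744742), whose Arabidopsis relative is a repressor, had 8.88, 9.65 and 11.9 FPKM at 0 h, 59.2, 44.9 and 49.7 at 3 h, 48.7, 47.2 and 45.9 at 12 h, and 231, 265 and 275 at 24 h. The 3 h and 12 h libraries overlapped and lay above 0 h, and the 24 h libraries lay above all others. The log2 fold changes were 2.34 ± 0.13, 2.27 ± 0.13 and 4.72 ± 0.14 (adjusted p = 7.5e-11 at 24 h), and at 24 h this gene held 52.2% of the summed level of the factors.

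Of the 5 class B factors, HSF24 included, 3 rose and 1 fell between 12 and 24 h when B-3-like is set aside; over all tested genes 24.5% rose and 27.4% fell. B-2a-like (CsaV3_6G050100) had 0.355, 0.805 and 0.779 FPKM at 0 h, 4.39, 4.08 and 5.09 at 3 h, 2.76, 0.700 and 0.926 at 12 h, and 7.24, 23.4 and 15.8 at 24 h, so that 12 h overlapped with 0 h and was not called. It reached 1 FPKM in 7 libraries, none of them at 0 h, so that a rise could be built into its choice. The class B count just given and the counts over all factors and over the 56 genes include it. B-3-like (CsaV3_3G040700) stayed below 0.7 FPKM until 12 h, on about 8 fragments in all at 0 h, and had 4.58, 3.34 and 3.38 FPKM at 24 h. It entered the 56 through those 3 libraries, so that its rise is left out of the class B count just given. The counts over all factors and over the 56 genes at 12 and 24 h do include it. HSF24 (CsaV3_6G043240), the name first given to tomato factor B1, had 17.6 ± 3.80 FPKM at 24 h, against 6.57 ± 0.732 at 0 h, and its call at 3 h (adjusted p = 0.049) was lost in 9 of 22 other settings. B-4-like (CsaV3_4G034470) fell by 2.27 on the log2 scale at 24 h, to 0.309 ± 0.153 FPKM, against 1.56 ± 0.104 at 0 h. It reached 1 FPKM in 7 libraries, none of them at 24 h, so that its fall could be built into the choice.

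Of the 8 class A factors tested, 5 rose at 3 h, 6 at 12 h and 7 at 24 h, against 29.4%, 34.4% and 36.2% of all genes. At 24 h 1 fell, against 37.9% of all genes. The rises at each time include A-4d (CsaV3_6G015610), which reached 1 FPKM in 9 libraries, none of them at 0 h. A rise was therefore built into its choice. The counts over all factors and over all heat shock genes also include it. The class A factor that fell was A-7a (CsaV3_2G013880, chromosome 2, 11421298 to 11424176), the highest class A gene. It had 86.8, 67.4 and 73.7 FPKM at 0 h, 82.2, 74.0 and 84.5 at 3 h, 72.6, 62.4 and 77.3 at 12 h, and 33.6, 42.5 and 38.3 at 24 h. The libraries of 0, 3 and 12 h overlapped, and those of 24 h lay below them all, a fall of 0.94 ± 0.12 on the log2 scale (adjusted p = 1.2e-05).

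A-1d-like (CsaV3_3G001500), a relative of the factors that start the heat response in Arabidopsis, changed early and then held: 21.9 ± 0.193 FPKM at 0 h, 34.7 ± 2.27 at 3 h, 34.1 ± 0.409 at 12 h and 35.3 ± 2.70 at 24 h, with log2 fold changes of 0.67, 0.69 and 0.75. A-2 (CsaV3_2G025510), which in Arabidopsis prolongs the heat response, was highest at 3 h. It had 4.70, 4.61 and 4.58 FPKM at 0 h, 22.3, 19.7 and 18.3 at 3 h, 12.6, 14.1 and 16.7 at 12 h, and 5.92, 11.1 and 15.2 at 24 h. Its log2 fold changes were 2.11 ± 0.26, 1.69 ± 0.26 and 1.27 ± 0.26, all called, and it overlaps another gene on the opposite strand.

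A-8 (CsaV3_5G014520) took its largest step between 12 and 24 h: it had 2.89, 3.23 and 2.38 FPKM at 0 h, 5.22, 4.97 and 5.43 at 3 h, 6.65, 7.38 and 6.66 at 12 h, and 30.5, 33.1 and 35.04 at 24 h (log2 fold change at 24 h 3.59 ± 0.12). A-3 (CsaV3_3G036820), which in Arabidopsis is a target of DREB2A, also rose late, to 7.29 ± 1.36 FPKM at 24 h, against 1.72 ± 0.128 at 0 h. A-4d (CsaV3_6G015610) had 0.0451 to 0.544 FPKM at 0 h, 3.20 to 3.71 at 3 h, 4.50 to 5.57 at 12 h and 6.90 to 7.50 at 24 h. It was chosen through its chilled libraries alone, as said above. The pair of A-6b factors that was left out of the count had means of 4.58 and 1.28 FPKM at 0 h, 67.6 and 1.08 at 3 h, 18.9 and 76.4 at 12 h, and 28.7 and 67.7 at 24 h (CsaV3_7G027860 first, CsaV3_3G012910 second). Except for the named C-1, C-1-like, B-2b-like and A-7a, the factors described here were chosen after their values were seen.

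**Figure D5:**
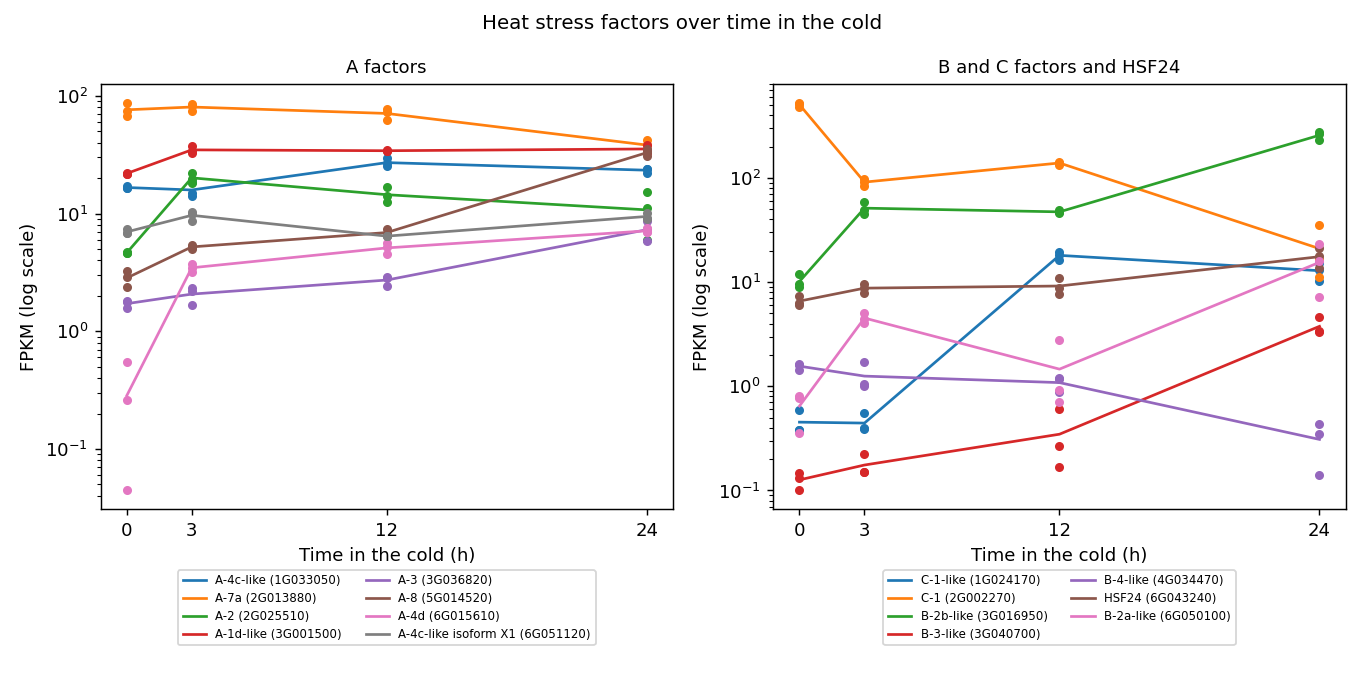
FPKM (log scale) of the 15 heat stress factors against hours in the cold, class A on the left, classes B and C with HSF24 on the right; points are single libraries and lines join means of 3 libraries. C-1 tops the right panel at 0 h and lies at 21.0 FPKM at 24 h, where B-2b-like reaches 257 FPKM.

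Some genes lay just inside or just outside the level of 1 FPKM that the rule asks for. The class I gene CsaV3_3G027480 and B-3-like reached it in 3 libraries, the class IV gene CsaV3_3G006720 in 5 and C-1-like in 6. Outside it, a second A-7a gene (CsaV3_2G001400) and the class I gene CsaV3_5G008680 reached it in 2 libraries and CsaV3_5G008780 in 1. The A-7a gene had 4.03, 2.16 and 0.889 FPKM at 24 h and at most 0.545 FPKM in any earlier library. The other 6 did not reach it in any library, and 4 of these were listed at 0 throughout.

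By position, 16 of the 56 genes lay in runs of neighbouring heat shock genes, with at most 3 other genes between them. There were 8 such runs, 6 of small heat shock proteins and 2 of HSP90. In 7 runs at least 2 members were tested, and in 2 of these the neighbours differed in their call at 24 h: the chromosome 1 run above, and the pair of CsaV3_3G034390 with CsaV3_3G034400. That pair differed in the call alone, with log2 fold changes of -0.34 (called) and -0.50 ± 0.32 (not called). A total of 11 of the 56 overlapped another listed gene, in each case on the opposite strand. In the deposited annotation, 35 of the 56, all of them chaperones, carried the KEGG term for protein processing in the endoplasmic reticulum, 7 HSP70 genes carried those for the spliceosome and for endocytosis, and the 6 HSP90 genes that for plant-pathogen interaction.

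The heat shock genes also varied more between libraries of one duration than other genes did. Over genes whose mean was 5 FPKM or more (46 of the 56, and 11260 of all), the median coefficient of variation was 13.1% for heat shock genes and 6.32% for all genes at 0 h, 12.0% and 6.40% at 3 h, 8.20% and 6.31% at 12 h, and 18.0% and 11.8% at 24 h. At 24 h, replicate 3 was the highest of the 3 libraries for 31 of these 46 genes (67.4%), against 42.1% of all genes, and for 10 of 11 HSP70 and 5 of 6 HSP90 genes. At 0 h, replicate 2 was highest for 25 of the 46 (54.3%, against 32.2% of all genes), 11 of them among the 16 small heat shock proteins. The summed phloem markers, 14 genes of which 1 was at 0 everywhere, were 513, 1299 and 1374 FPKM in the 24 h libraries and 284 to 572 FPKM in the others. At 24 h, where 36.2% of all tested genes rose and 37.9% fell, 7 of the 10 tested phloem markers rose and 3 fell. Guard cell markers summed to 46.5 to 56.5 FPKM at 0 h, 72.2 to 77.7 at 3 h, 80.2 to 89.999 at 12 h and 53.3 to 70.3 at 24 h, and of the 9 tested 2 rose and 4 fell at 24 h. Epidermis markers summed to 157 to 177 FPKM at 24 h, against 275 to 369 at 0 h, and of the 12 tested 6 rose and 4 fell. Their part in the changes of the heat shock genes was not tested.

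Other chaperones and their helpers, 51 tested genes chosen by description, went both ways: 23 rose and 10 fell at 3 h, where 29.4% and 28.3% of all genes did. At 12 h 28 rose and 12 fell, against 34.4% and 33.0% of all genes. At 24 h 28 rose (54.9%) and 18 fell (35.3%), against 36.2% and 37.9%, so that the share that fell was close to that of all genes. The 3 GrpE genes, nucleotide exchange factors of organelle HSP70, rose at all 3 times, and so did the 3 galactinol synthase genes, which start the synthesis of raffinose sugars and are targets of heat stress factors in Arabidopsis. Of the 8 chaperonin genes of the organelles 6 rose at each time, and 1 fell at 3 and 12 h and 2 at 24 h. Of the 8 cytosolic chaperonin subunits (T-complex protein 1) 2 fell at 3 h and 6 rose at 12 and 24 h. The BAG family, regulators of HSP70, had 3 rises and 2 falls among 11 genes at 3 h and 3 rises and 7 falls at 24 h.

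Single genes of this wider group went both ways. The mitochondrial GrpE gene CsaV3_3G004810 had 119 ± 11.63 FPKM at 24 h, against 27.8 ± 1.07 at 0 h, and chaperonin CPN60-2 (CsaV3_2G012300) had 134 ± 29.4 against 36.2 ± 1.16 FPKM. BAG5 of the mitochondrion (CsaV3_1G017210) fell at all 3 times, to 36.5 ± 8.91 FPKM at 24 h, against 159.7 ± 19.7 at 0 h. Multiprotein-bridging factor 1c (CsaV3_2G002310), a coactivator of the heat response in Arabidopsis, fell by 1.20, 0.82 and 1.30 on the log2 scale at 3, 12 and 24 h. Stress-induced phosphoprotein 1 (CsaV3_2G013500), another organizing protein of the HSP70-HSP90 kind, fell by 1.013, 1.25 and 1.22, while the organizing protein 3-like gene described above rose. Of the endoplasmic reticulum chaperones, calnexin (CsaV3_1G009950) rose at all 3 times, the endoplasmin homolog (CsaV3_2G029630) was not called at any, and both calreticulin genes fell at 24 h.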

How the data were processed

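RNA-seq of 12 leaf libraries was used, 3 for each of 0, 3, 12 and 24 h of cold. The submitters' processing notes name cutadapt 1.9 and FastQC, and the series design text names HISAT2 with the cucumber genome of the cucurbit genomics site. Counting tool, genome build, annotation and strand setting: not given in the sources used here. Gene coordinates were taken as deposited and cover the whole gene. The authors deposited estimated counts per gene as whole numbers, so that no rounding was needed. Low counts are spaced by about 3.74, and a fragment is therefore worth more than 1 unit. The authors also deposited FPKM, scaled to transcript length and library size, in which 0.0001 stands for a count of 0 and was read as 0.

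Tested were the 16432 of 24317 genes that reached 1 FPKM in 3 or more libraries, holding 99.84% of the counts. The test was edgeR's two-sided quasi-likelihood test (edgeR 4.0.16, R 4.3.3) with TMM scaling, in 1 fit of a mean for each duration to the 12 libraries, without a block, adjusted over all tested genes. It was tested on simulated data. The alternatives were DESeq2 1.42.0, limma 3.58.1 on log2 FPKM, other scalings, filters and thresholds, and leaving out each library.

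Genes described in full were, per class, the 3 with the highest mean FPKM and those with the largest called rise and fall at each time among genes with at least 5 FPKM in the higher group (16 genes); the text says where others were added. The members, classes and lists were chosen with earlier results of these data known. A search of promoters for heat shock elements was planned and not made, since no sequence was used here. Pairs of same-numbered libraries did not deviate together (18 pairs, r from -0.072 to 0.093), so the numbers were not taken as pairs.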

Additional observations from a re-analysis of the deposited data

How the results depend on the processing

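All 49 calls at 24 h held in each of the up to 22 other settings that gave a value, 32 of 37 at 3 h and 35 of 42 at 12 h. From 3 to 12 h 26 of 31 held, and from 12 to 24 h 22 of 26. With a 2-fold limit added, 21 genes were called at 3 h against 37, 18 against 31 from 3 to 12 h, and 11 against 26 from 12 to 24 h. With the same limit 27 rises and 5 falls were left at 12 h, and 31 rises and 10 falls at 24 h. With genes filtered at a mean of 5 FPKM, the median log2 fold change was 0.88 at 3 h and 1.13 at 12 h, and 3 genes fell at 12 h and 9 at 24 h, since low genes drop out. With limma on log2(FPKM + 1) the median at 12 h was 0.66; the cause was not tested. Leaving out 1 library at a time gave 1 to 2 falls at 3 h, 4 to 9 at 12 h and 14 at 24 h, and 31 to 37, 32 to 37 and 35 to 36 rises.

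Sign changes among the named genes were all in values that were not called. The log2 fold change of CsaV3_3G034390 at 3 h was 0.0025 with RLE scaling, 0.0114 with library totals, 0.0029 without a filter, 0.0057 with genes filtered at a mean of 5 FPKM, 0.0061 in a fit of the 2 groups alone and 0.0025 with DESeq2. Over fits that left out 1 library it ran from -0.066 to 0.056 at 3 h and from -0.063 to 0.0075 at 12 h. The same range was -0.22 to 0.21 for CsaV3_1G024170 at 3 h, -0.12 to 0.052 for CsaV3_2G013880 at 12 h, -0.54 to 0.076 for CsaV3_2G009170 at 12 h, and -0.34 to 0.048 for CsaV3_5G008760 at 24 h.

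With the replicate number as a block, 37, 40 and 49 of the 56 genes were called at 3, 12 and 24 h, against 37, 42 and 49 without it; 3 of 12 libraries correlated best with their own number. Fits of 2 groups alone, DESeq2 and limma give no count over all durations at once. Counts of few fragments limit the values of genes near 1 FPKM.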
